A study of Bos taurus with 16 samples.

Results

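The merged locus XLOC_002658 is 1 of 44265 features counted in every library, and the supplementary list of the study pairs it with the symbol SLC7A8. It was chosen because it is one of the features that list gives as changed by 5-hydroxytryptophan (5-HTP) in adipose tissue, so its difference between groups in that tissue is given here as a description without a test. RNA was sequenced from subcutaneous white adipose tissue near the tail head and from gluteus medius muscle of 8 Holstein bull calves, which were about 21 days old at the start and drank 8 L of milk replacer a day. For 10 days, 4 calves received saline with the milk replacer (CON, calves 1 to 4) and 4 received 90 mg of 5-HTP a day (5-HTP, calves 5 to 8). 5-HTP is the precursor from which serotonin is made in a single enzymatic step. Each of the 4 groups of tissue and treatment held 4 libraries, 16 in all, with between 17289845 and 28649548 counts in a library.

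SLC7A8 encodes LAT2, the light chain of a transporter that sits in the plasma membrane together with a heavy chain encoded by SLC3A2. LAT2 exchanges neutral amino acids across the membrane without sodium, taking one in for each one let out, and it accepts small as well as large neutral amino acids. Tryptophan, from which 5-HTP is made, is one of the large neutral amino acids. The carrier is best known from the basolateral membrane of kidney and small intestine epithelium. Closely related light chains, such as that encoded by SLC7A5, use the same heavy chain.

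The label could be checked only in part. The locus carries no Ensembl identifier and no position in the deposited tables, and the SLC7A8 gene of the Ensembl annotation was not matched to a feature here. Whether the locus holds all, some or none of the reads of that gene was not determined. Merged loci were numbered in the order of chromosome names. When the 28 loci with a symbol in the study's lists and in RefSeq (ARS-UCD2.0) were put in order of locus number, they fell into 16 runs for 16 chromosomes. XLOC_002658 stood in the run of the chromosome on which RefSeq places SLC7A8, between FOS, on the same chromosome, and LMX1B, on the next. This check reaches the chromosome only, not the position on it. Within a chromosome the numbers need not follow position, since the study's list gives the symbol WDR86 to features of XLOC_030964 and XLOC_031440. In RefSeq, SLC7A8 lies between the protein-coding genes RNF212B and CEBPE, has 3 transcripts, and holds 2 snRNA genes within its bounds. Whether reads were counted by strand is not given in the sources used here, and reads from a transcript on the opposite strand cannot be told apart from those of the locus.

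In adipose tissue, most of the counts of the locus came from 3 calves, all supplemented with 5-HTP. CON calves 1 to 4 had 47, 13, 33 and 10 counts, and 5-HTP calves 5 to 8 had 347, 48, 375 and 126 counts. Of all counts of the locus in the 16 libraries, 78.7% were in the adipose tissue of 5-HTP calves.

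In CPM, which are counts scaled to library size with TMM factors from the 8 libraries of the tissue, CON calves 1 to 4 were at 2.09, 0.835, 1.63 and 0.528. The corresponding values of 5-HTP calves 5 to 8 were 14.6, 1.96, 16.2 and 7.29 CPM. Calves 5, 7 and 8 lay above every CON calf, while calf 6 lay below CON calf 1, so that the groups overlapped. No overlap between groups was seen in 2.38% of the 20167 features tested in adipose tissue.

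CON calves averaged 1.27 ± 0.717 CPM and 5-HTP calves 10.0 ± 6.60 CPM (SD, n = 4 each). The logFC (log2 of 5-HTP over CON) of the locus was 2.96 in the negative binomial fit of edgeR, with a standard error of 0.62. This is a ratio of 7.79, with a 95% interval from 3.38 to 18.0. Because the locus was chosen on this contrast, the ratio may be too large, and the interval does not serve as a test. Among the 22 features at an FDR at or under 0.20 in adipose tissue, 0.109% of those tested, the locus had the fourth smallest P value and the third largest logFC. These ranks describe how it was chosen.

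The spread between calves was wide in both groups and was not a matter of counting error alone. The exact 95% Poisson interval ran from 1.45 to 2.60 CPM in calf 6 and from 6.08 to 8.68 CPM in calf 8, and from 13.1 to 16.2 and from 14.6 to 17.9 CPM in calves 5 and 7. The intervals of calves 5 and 7 overlapped, while those of calves 8 and 6 lay apart from them and from each other. Among 5-HTP calves the highest value was 8.24 times the lowest, and among CON calves 3.96 times. The biological coefficient of variation of the locus in the edgeR fit was 0.584, against a median of 0.327 over all features tested, and 86.8% of features had a smaller one.

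**Figure D1:**
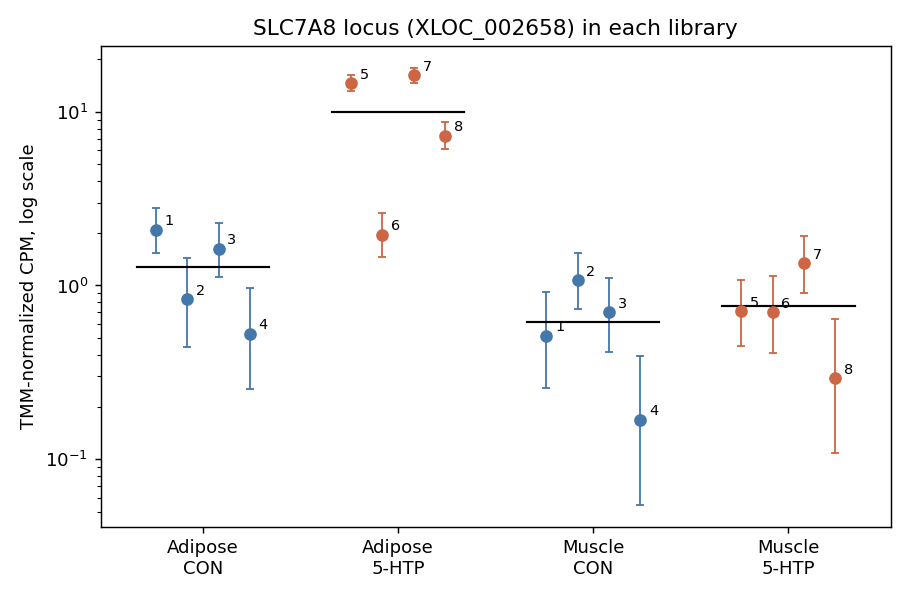
TMM-normalized CPM of the SLC7A8 locus (log axis) in each of the 16 libraries, by tissue and treatment; points are labelled with the calf number, error bars are exact 95% Poisson intervals of the count, and black lines are group means. Adipose tissue of 5-HTP calves 5, 7 and 8 lies between 7.29 and 16.2 CPM, calf 6 at 1.96 CPM lies within the range of the CON calves, and both muscle groups lie at or below 1.34 CPM.

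In bulk tissue, more cells that express the locus and more RNA of it per cell cannot be told apart. The 20 features that were most abundant in muscle among those at least 100 times higher there than in adipose tissue, chosen on these CON libraries, took between 0.0150% and 0.0228% of the counts in adipose tissue of CON calves and between 0.0113% and 0.0204% in that of 5-HTP calves. In 5-HTP calves 5 to 8 the shares were 0.0204%, 0.0171%, 0.0113% and 0.0154%. They describe the samples only, and a part of muscle in the difference was not tested. In muscle libraries the same features took between 24.1% and 28.6%. Symbols of marker genes for other cell types could not be paired with features, and a part of such cells in the difference was not tested.

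Muscle was not used to choose the locus, and there no difference between treatments was detected. CON calves 1 to 4 had 11, 31, 18 and 5 counts in muscle, and 5-HTP calves 5 to 8 had 22, 17, 30 and 6. In CPM, with factors from the 8 muscle libraries, CON calves stood at 0.514, 1.08, 0.701 and 0.168, and 5-HTP calves at 0.711, 0.704, 1.34 and 0.294. Calf 7 alone lay above the highest CON calf, and none of the 4 lay below the lowest, where 2.59% of the features tested in muscle had groups that did not overlap.

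In muscle, CON calves averaged 0.615 ± 0.378 CPM and 5-HTP calves 0.763 ± 0.434 CPM (SD, n = 4 each). The corresponding logFC, 0.31 ± 0.59 (standard error), had an FDR of 0.997 (edgeR likelihood ratio test over 16878 features, of which 0.201% had an FDR at or under 0.20). Permuting the calves exactly, with log2(CPM + 0.5) as the value and both sides counted, gave p = 0.629, where the smallest p that 4 calves against 4 allow is 0.0286. The 95% interval of the logFC, from -0.85 to 1.47, holds ratios from 0.555 to 2.77. Changes within this interval, in either direction, could not be told from none with these 8 libraries. The direction itself rested on single calves, since the logFC was -0.01 without CON calf 4 and -0.10 without 5-HTP calf 7. The biological coefficient of variation in muscle was 0.527, above that of 94.2% of the features tested.

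**Figure D2:**
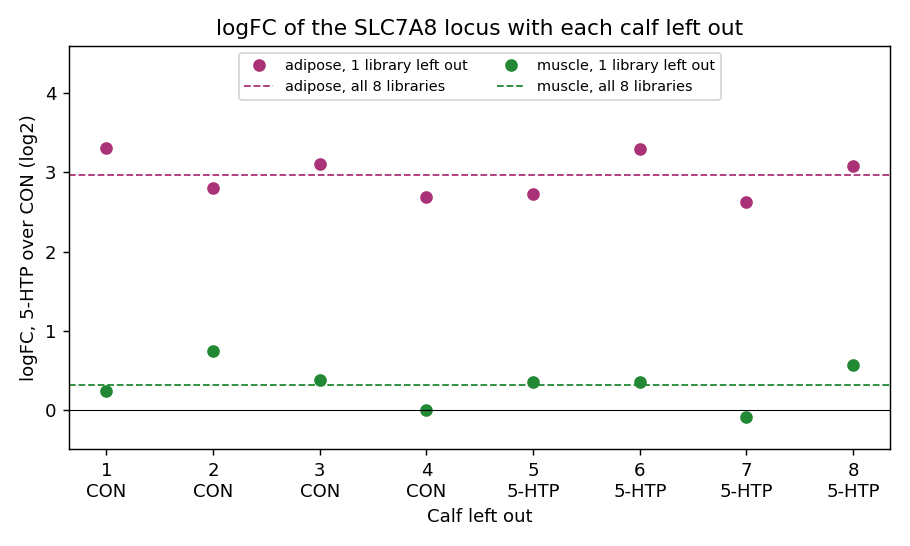
logFC of the SLC7A8 locus (log2 of 5-HTP over CON, edgeR) in adipose tissue and muscle when the library of 1 calf was left out; dashed lines are the values with all 8 libraries of a tissue. In adipose tissue the values stay between 2.63 and 3.31, and in muscle they lie between -0.10 and 0.74, on both sides of 0.

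The logFC in muscle less that in adipose tissue was -2.64, with a standard error of 0.89, in a fit over all 16 libraries with 4 groups. This difference holds the adipose contrast for which the locus was chosen, so it was not tested.

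The level of the locus in both tissues was compared next. With scaling over all 16 libraries, the means were 0.844 ± 0.486 CPM in adipose tissue and 0.932 ± 0.571 CPM in muscle of CON calves, and 6.60 ± 4.37 and 1.16 ± 0.668 CPM in 5-HTP calves (SD, n = 4 each). In order of mean, adipose tissue of 5-HTP calves came first, followed by muscle of 5-HTP calves, muscle of CON calves and adipose tissue of CON calves. The ranges of every pair of groups overlapped, and the last 3 means differed by less than 1 SD of any of these groups.

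The order of the lower groups depends on the scaling. The normalization factors over 16 libraries lay between 1.39 and 1.61 in adipose tissue and between 0.535 and 0.721 in muscle. Relative to library totals alone, the mean of CON calves was 1.30 CPM in adipose tissue and 0.617 CPM in muscle, the reverse of the order above.

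Averaged over treatments, the logFC of adipose tissue over muscle was 1.18 ± 0.45 (standard error). This average holds the adipose values of the 5-HTP calves for which the locus was chosen, so it is given without a test. Of the 21849 features in that fit, 78.1% had an FDR at or under 0.20, 42.8% being higher in adipose tissue. In CON calves alone the logFC was -0.11 (standard error 0.63), and in 5-HTP calves alone it was 2.56 (standard error 0.60). With library totals these were 1.07 and 3.71, in fits where the median logFC of all features was 1.25 and 1.24. Relative to the median feature, adipose tissue and muscle of CON calves thus differed by less than the standard error under either scaling.

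Libraries of the 2 tissues carry the same numbers, which were taken as the calf. On the 16-library scale the ratio of adipose tissue to muscle was 8.94, 5.24 and 10.9 in calves 5, 7 and 8, but 1.23 in calf 6. In CON calves 1 to 4 it was 1.74, 0.332, 1.05 and 1.38. For calves 1 and 2 the pairing of libraries rests on the number alone, since their adipose libraries did not correlate best with the muscle library of that number. Adipose tissue was thus higher in 7 of 8 calves, by a mean of 0.91 ± 1.35 on the log2(CPM + 0.5) scale (SD, n = 8), again without a test. The 7 include ratios of 1.05 and 1.23, and calves 5, 7 and 8, whose adipose values chose the locus. Higher values in adipose tissue of all 8 calves, which the locus did not have, were seen in 23.5% of the features tested. The share for at least 7 of 8 was not computed. In muscle, calf 7 was the highest of the 5-HTP calves, as in adipose tissue, and calf 8 was the lowest, while in adipose tissue calf 6 was.

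The difference in adipose tissue was next compared with that of the loci on either side by number, 5 below and 5 above, which were not chosen by their values. Positions and strands of these loci are not given, so they may not be the nearest to the locus on the chromosome. In adipose tissue 6 of the 10 passed the filter on low counts, and 0 of these 6 had an FDR at or under 0.20 in edgeR, beside 0.109% of all features, with 0 at an unadjusted P value under 0.05 and 0 at that FDR in DESeq2. Their logFC lay between -0.20 and 0.31, with 4 above and 2 below 0 and a median of 0.05, where the median of all features was 0.01. The locus with the next higher number (ENSBTAG00000047027) averaged 14.0 ± 2.10 CPM under CON and 14.3 ± 2.19 CPM under 5-HTP (SD, n = 4 each), and the one after it, XLOC_002660, averaged 65.5 ± 26.3 and 68.0 ± 12.2 CPM. The 3 loci with the next lower numbers had at most 12 counts in any library and were not tested. In muscle, 5 of the 10 loci passed the filter and 0 had an FDR at or under 0.20, beside 0.201% of all features, with 0 at an unadjusted P value under 0.05, 0 at that FDR in DESeq2, and logFC from -0.10 to 0.42. The highest of these, ENSBTAG00000006884, had an FDR of 0.186 in edgeR when CON calf 4 was left out.

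**Figure D3:**
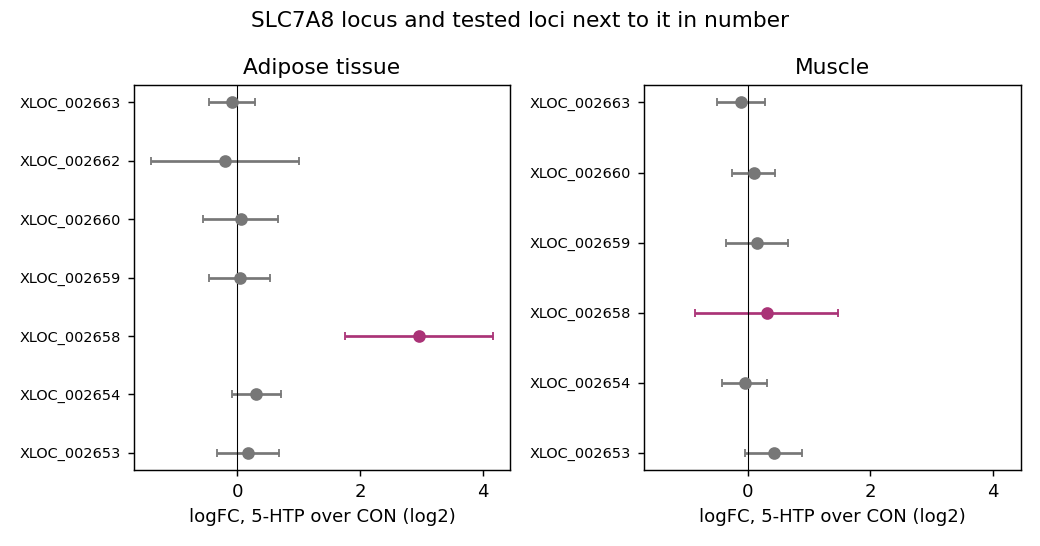
logFC (log2 of 5-HTP over CON, edgeR) with 95% intervals for the SLC7A8 locus (purple) and the tested loci within 5 numbers of it (grey), in adipose tissue and muscle. In adipose tissue the intervals of the 6 grey loci cross 0 and their logFC stay between -0.20 and 0.31, beside 2.96 for the SLC7A8 locus. The SLC7A8 locus was chosen on the adipose contrast, so its interval there does not serve as a test.

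The remaining features of the adipose list that carry a symbol, all chosen on the same contrast and the same CON libraries, did not rank the 5-HTP calves alike. ANKRD33B, an ankyrin repeat gene, was at 110, 73.8, 164 and 78.8 CPM in calves 5 to 8, highest in calf 7 and lowest in calf 6, as was the SLC7A8 locus. The feature described as CD36 (ENSBTAG00000014220), a name that stands for a fatty acid receptor, was at 1.22, 0.9, 2.50 and 1.04 CPM in these calves, with the same highest and lowest calf.

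CYP4F2, a cytochrome P450 that hydroxylates fatty acids, ran differently, at 1.55, 3.76, 2.85 and 10.2 CPM in calves 5 to 8, and was lowest in calf 5. REEP6, a receptor accessory protein gene, also had its highest value in calf 8, at 39.0 CPM, and its lowest in calf 5. IFI47, an interferon-inducible GTPase gene, was at 16.6 CPM in calf 6 and 11.9 CPM in calf 7, the reverse of the SLC7A8 locus, at 1.96 and 16.2 CPM. Calf 6 was thus the lowest 5-HTP calf for the SLC7A8 locus, ANKRD33B and the CD36-labelled feature, and not for IFI47, CYP4F2 or REEP6. Set against CON, calf 6 lay within the range of the CON calves only for the SLC7A8 locus. It lay above every CON calf for ANKRD33B (CON at most 52.5 CPM) and the CD36-labelled feature (CON at most 0.346 CPM). The same held for IFI47, CYP4F2 and REEP6. Of the features that were lower in 5-HTP calves, FUT7, a fucosyltransferase gene, ranged from 0.174 to 0.336 CPM in these calves, below 0.544 to 1.91 CPM in CON. CLSTN3, a calsyntenin gene, ranged from 2.89 to 4.14 CPM, against 4.45 to 27.0 CPM, and COLQ, the collagen tail of acetylcholinesterase, from 18.2 to 31.0 CPM, against 37.4 to 91.2 CPM.

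**Figure D4:**
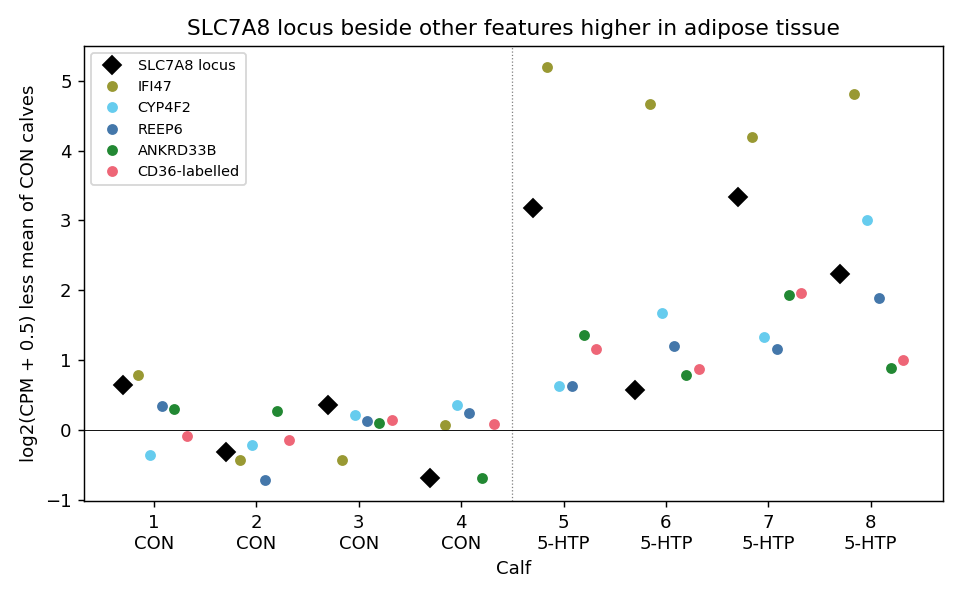
log2(CPM + 0.5) in adipose tissue of each calf, less the mean of the 4 CON calves, for the SLC7A8 locus (black diamonds) and 5 other features higher in 5-HTP calves (coloured points). The SLC7A8 locus is near the CON level in calf 6 and high in calves 5, 7 and 8, while IFI47 is high in all 4 5-HTP calves and CYP4F2 is highest in calf 8.

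Features whose pattern over calves was most like that of the locus were sought by Pearson's r of log2(CPM + 0.5) over the 8 adipose libraries, as a description. Of 20166 other features, 22 (0.109%) had an r of at least 0.9, and the median r was 0.02. The highest was XLOC_005469, with r = 0.973 and Spearman's rho = 0.976, but it stayed between 0.475 and 1.12 CPM. Among the first 5, the only one above 2 CPM was ENSBTAG00000014611 (r = 0.953, rho = 1), which ordered the 8 calves as the locus did. Its CPM were 37.0, 27.2, 27.8 and 19.6 in calves 1 to 4, and 49.4, 32.7, 59.1 and 43.0 in calves 5 to 8. Its logFC was 0.72, smaller than that of the locus, and is given without a test because the feature was found on the same libraries. A like order of the calves is what the search looked for. These points share their libraries and, in part, the contrast between groups.

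When the mean of each tissue and treatment group was subtracted, so that only differences among calves of a group remained, no feature of 21848 reached an r of 0.9 over the 16 libraries. The highest was ENSBTAG00000009239, with r = 0.871 and rho = 0.788, at a mean of 0.678 CPM in CON and 0.936 CPM in 5-HTP adipose tissue. XLOC_029999 followed, with r = 0.850 and rho = 0.759. It was at 8.18, 3.15, 10.5 and 8.05 CPM in adipose tissue of 5-HTP calves 5 to 8, lowest in calf 6 and highest in calf 7. In muscle it averaged only 0.164 CPM in CON and 0.354 CPM in 5-HTP calves, and it was not tested there. The locus itself spread most in adipose tissue of 5-HTP calves (SD of 1.27 on the log2 scale), so these libraries weigh heavily in r.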

How the data were processed

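Reads were trimmed by the authors with Trim Galore 0.4.4 and aligned with Hisat2 to the ARS-UCD1.2 assembly, Cufflinks 2.2.1 assembled and merged the transcripts, and htseq-count gave the table of each library. These counts were deposited raw, 1 file per library. Groups follow the labels of tissue and treatment.

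The main fits used edgeR 4.0.16 and the alternatives also DESeq2 1.42.0, under R 4.3.3. A feature was kept if 4 or more libraries held 10 or more counts. TMM normalization and estimateDisp defaults were followed by a treatment-only model and the likelihood ratio test named in the paper's methods, with Benjamini-Hochberg adjustment over all features. The study's threshold, an FDR at or under 0.20, was used. Tissues were compared in a fit of 4 groups over all 16 libraries, for which the planned tests of the locus are not given because they rest in part on the values that chose it. Intervals of logFC are normal 95% intervals from the standard error. Poisson intervals cover counting error only. A count of 3, the floor used here, is between 0.0969 and 0.193 CPM.

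The locus, the lists and the tests were chosen with earlier results of these data known. The features named are the locus, the 5 loci before and after it by number, the symbols of the study's adipose list and the 5 features with the highest r. Fits were tested on simulated counts in which few features were changed. The share of false calls there was above the nominal FDR in both tissues and between them. Counts of features at an FDR at or under 0.20 between treatments may thus hold more false calls than that threshold states. Between tissues, where 78.1% of features had such an FDR, the simulation was unlike the data and does not show this. A list of 33 amino acid transport, serotonin and amino acid sensing genes was not run because 0 of its symbols could be paired with a feature, and the reference gene table (ARS-UCD2.0) gave 0 Ensembl identifiers. The labels do not say that a number is a calf. Deviations of same-numbered libraries from their group means had correlations from -0.155 to 0.211, over 0.1 in 5 of 8 pairs. No pair of libraries in a group had counts within sampling noise (the lowest chi-square divided by its degrees of freedom was 24.9).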

Additional observations from a re-analysis of the deposited data

How the results depend on the processing

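The logFC of the SLC7A8 locus in adipose tissue stayed between 2.95 and 2.97 under 8 alternatives (quasi-likelihood test, DESeq2, RLE normalization, 3 other filters, 1 row per merged locus, dispersions shared over 16 libraries). The logFC between 2 groups depends little on the test, the filter or the dispersion, so this stability was largely fixed in advance. How these alternatives change the FDR of the locus is not given, because the locus was chosen on this contrast. With each calf left out, the logFC lay between 2.63 and 3.31. In muscle the logFC stayed at 0.31 under the same alternatives and lay between -0.10 and 0.74 with each calf left out. Its FDR was at least 0.947 in edgeR in each of these fits, and DESeq2 gave no adjusted p. The permutation test in muscle gave p = 0.543 with a pseudocount of 0.001. The logFC of adipose tissue over muscle lay between 0.98 and 1.52 with each calf left out and was 2.39 with library totals. In CON calves only, an alternative added after the data were seen, it was -0.11 (standard error 0.63), and in 5-HTP calves only it was 2.56. Both of these fits have fewer samples. The averaged difference thus lay mainly in the 5-HTP calves, whose adipose values chose the locus. With the calf number as replicate block the averaged logFC of adipose tissue over muscle was 1.12. The difference of the 5-HTP effect between tissues was -2.42 with the block and between -3.06 and -2.06 with each calf left out. The block turned neither direction, and 6 of 8 adipose libraries correlated best with the muscle library of their own number. The exceptions were CON calves 1 and 2, with correlations of -0.155 and -0.0235. Of the loci next to it in number, between 0 and 1 were called with each calf left out, the 1 in muscle without CON calf 4. The count of features at an FDR at or under 0.20 went with the quasi-likelihood test from 22 to 1 in adipose tissue and from 34 to 1 in muscle, rose to 56 in adipose tissue with shared dispersions, and moved between 4 (without CON calf 4) and 56 (without CON calf 3) in adipose tissue and between 13 (without 5-HTP calf 5 or 8) and 188 (without CON calf 4) in muscle. Without 5-HTP calf 6 it was 42 and 140. The count in muscle was 51 with no filter. The cause was not tested. The muscle libraries held between 5 and 31 counts of the locus, which limits the precision there.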
